A study of Mus musculus with 6 samples.

Results

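The amino acid transporter genes were examined in RAW-D cells, a mouse macrophage line subcloned from RAW264.7 for a high potential to form osteoclasts. The genes were chosen by symbol alone, as numbered members of the solute carrier families Slc1, Slc3, Slc6, Slc7, Slc36, Slc38 or Slc43. Symbols that end in a letter were left out, so the counts of a family may not cover all of it. This gave 59 genes of the 19505 named genes on the array. A gene with several probe sets was to be selected on the highest mean signal over the 6 arrays. Each of the 59 had 1 probe set, so within these families no signal decided which genes or probe sets entered. The families themselves were chosen with earlier results of these data known, so that choice is not independent of the values below. The families are named for amino acid transport, yet some of their genes carry other molecules. Those described with their own values below are named as such, while dim genes are mostly listed by symbol only.

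The 6 arrays were Clariom S gene expression arrays, which measure RNA as probe brightness on a log2 scale. The study asked what the loss of Lpin2, which encodes the phosphatidic acid phosphatase lipin 2, does to gene expression in macrophages at rest and under bacterial lipopolysaccharide (LPS). Lpin2 KO cells treated with LPS (200 ng/mL for 4 h) gave 2 arrays and WT cells treated likewise gave 1 array. Untreated Lpin2 KO cells gave 2 arrays and untreated WT cells gave 1 array. The KO cells were a pair of puromycin-selected clones made with CRISPR/Cas9 and repair plasmids, numbered #1 and #2. Each clone was measured once with LPS and once without. For the WT cells the paper describes no transfection, selection or cloning. Differences between KO and WT cells therefore cannot be told apart from effects of these steps. All cells were RAW-D cells grown in α-MEM with fetal bovine serum. WT had 1 array per treatment, so every test below took its spread from the KO clones and assumed that WT varied likewise, and an exact permutation test of 2 arrays against 1 cannot go below p = 0.333. With 6 arrays, precision is limited by their number. GEO's descriptions call untreated WT a gene-level analysis and the remaining 5 exon-level, although all 6 columns came as 1 table.

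Amino acid transporters set how fast a cell takes up the building blocks of protein, glutathione, nitric oxide and polyamines. In macrophages, cystine uptake feeds glutathione, arginine uptake feeds nitric oxide synthase and arginase, and leucine and arginine act on the kinase complex mTORC1 at the lysosome. Many carriers of the Slc7 family reach the plasma membrane only when joined to the heavy chain that Slc3a2 encodes (CD98). Several of these genes are known targets of ATF4, a transcription factor that is translated when amino acids run short and that binds composite sites with a core resembling TGATGNAA.

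The sequences upstream of the 3 light chain genes with the largest KO against WT differences with LPS, among those with signal above the negative controls, are shown for the motif matches they hold, TGATGNAA in Slc7a11 and Slc7a7 and GAAANNGAA in Slc7a8. They come from RefSeq, build GRCm38.p6, and hold the 250 bases before an annotated start, 5′ to 3′ on the gene's strand. Capitals mark these matches, found on either strand (TGATGNAA is the ATF4 core and GAAANNGAA an interferon-stimulated response motif). The windows are chr3:50443614-50443863, chr14:54417945-54418194 and chr14:54781887-54782136, all on the minus strand, and for Slc7a7, which has several annotated starts, the window of the farthest upstream start is shown.
Slc7a11: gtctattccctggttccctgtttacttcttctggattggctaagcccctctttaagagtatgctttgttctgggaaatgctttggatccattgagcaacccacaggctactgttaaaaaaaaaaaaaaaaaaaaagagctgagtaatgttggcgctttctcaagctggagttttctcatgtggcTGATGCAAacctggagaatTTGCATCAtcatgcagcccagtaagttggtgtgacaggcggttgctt
Slc7a7: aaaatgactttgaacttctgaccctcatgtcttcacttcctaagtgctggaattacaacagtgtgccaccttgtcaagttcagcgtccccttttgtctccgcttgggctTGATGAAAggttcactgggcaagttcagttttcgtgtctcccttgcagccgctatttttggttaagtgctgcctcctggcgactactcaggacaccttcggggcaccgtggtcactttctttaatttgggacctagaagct
Slc7a8: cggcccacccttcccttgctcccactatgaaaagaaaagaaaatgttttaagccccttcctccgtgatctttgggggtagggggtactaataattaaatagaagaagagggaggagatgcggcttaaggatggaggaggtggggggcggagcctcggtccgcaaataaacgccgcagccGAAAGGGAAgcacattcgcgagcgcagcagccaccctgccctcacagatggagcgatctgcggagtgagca

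In Slc7a11 the matches begin 66 and 47 bases before the start, the second of them on the opposite strand. In Slc7a7 the match begins 141 bases before the start, and a further match that begins 1 base before the start and runs past it is not marked. In Slc7a8 the GAAANNGAA match begins 71 bases before it. A window from 250 bases before to 50 after a start was at hand for 42 of the 59 transporters and for 27025 genes in all. TGATGNAA stood in 4 of these 42 transporters and in 4.51% of all genes with a window. TGACNNNGC (antioxidant response) stood in 8, against 14% of all genes, and TGANTCA (AP-1) also in 8, against 8.97%. GAAANNGAA stood in 4, against 9.76%, and GGGNNTTTC (NF-kB) in 3, against 5.06%. Among the 8 transporters with a window that passed a test below, TGATGNAA stood in Slc7a11 and Slc7a7, TGACNNNGC in Slc36a1 and Slc7a1, TGANTCA in Slc7a1 and GAAANNGAA in Slc7a8. Both strands were searched, the motifs that begin with TGA can overlap, and genes with several windows had more chances to match. These matches describe letters in a window and no binding was measured.

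Of the 59 transporters, 23 (39.0%) gave a signal above the negative control probes on at least 1 array, and 16 (27.1%) did so on all 6 arrays. Above means higher than the 95th percentile of that array's 5222 negative controls, a level that lay between 9.12 and 9.45 on the log2 scale. Over all named genes, 34.4% were above on at least 1 array and 25.1% on all 6. Each array had 18 to 21 transporters above. A gene with no array of a group above is called dim in that group below, and its signal there is only a bound.

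The families differed in how many genes had a signal. Among the light chains of Slc7, which pair with a heavy chain and exchange amino acids, 5 of 10 were above (Slc7a5, Slc7a6, Slc7a7, Slc7a8 and Slc7a11), and the dim ones were Slc7a9, Slc7a10, Slc7a12, Slc7a13 and Slc7a15. The heavy chain Slc3a2 was above and Slc3a1 was dim. Of the 5 Slc7 genes counted with the cationic carriers, Slc7a1 was above, and Slc7a2, Slc7a3, Slc7a4 and Slc7a14 were dim on all 6 arrays. None of the 5 high-affinity glutamate carriers was above (Slc1a1, Slc1a2, Slc1a3, Slc1a6 and Slc1a7). Of the neutral exchangers of Slc1, Slc1a5 was above and Slc1a4 was dim.

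The sodium-coupled neutral carriers of Slc38 had 6 of 11 above (Slc38a1, Slc38a2, Slc38a6, Slc38a7, Slc38a9 and Slc38a10), and Slc38a3, Slc38a4, Slc38a5, Slc38a8 and Slc38a11 were dim. Slc36, the proton-coupled carriers, had Slc36a1 and Slc36a4 above and Slc36a2 and Slc36a3 dim. Slc43 had Slc43a2 and Slc43a3 above and Slc43a1 dim. Slc6, the sodium- and chloride-coupled carriers of neurotransmitters, osmolytes and amino acids, had 5 of 17 above (Slc6a4, Slc6a6, Slc6a8, Slc6a9 and Slc6a12), and Slc6a2, Slc6a3, Slc6a5, Slc6a7, Slc6a11, Slc6a13, Slc6a14, Slc6a15, Slc6a17, Slc6a18, Slc6a19 and Slc6a21 were dim. The 36 dim genes had log2 signals between 3.26 and 8.22.

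**Figure D1:**
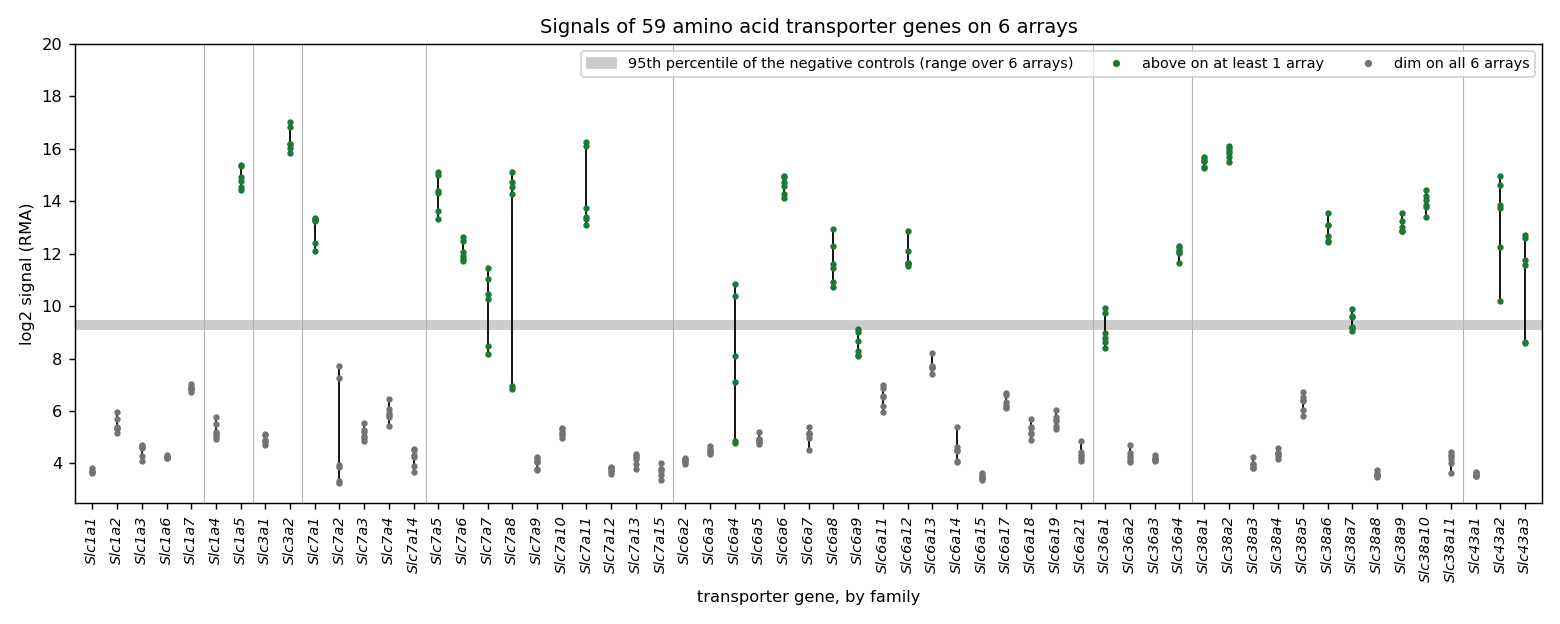
Log2 signal (vertical axis) of each of the 59 transporter genes (horizontal axis, grouped by family) on the 6 arrays, 1 point per array joined by a line, with the range of the 95th percentiles of the negative controls in grey. The 23 genes in green reach above that percentile on at least 1 array and the 36 in grey do not, and Slc7a8 spans the widest range of all 59.

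The cells carried the markers of macrophages. All 9 macrophage markers measured were above on at least 1 array and 7 on all 6, while Mrc1 was above on 2 arrays and Fcgr1 on 5. Of the osteoclast markers, 4 of 6 were above on all arrays (Ctsk, Acp5, Dcstamp and Ocstamp), and none of the 4 measured markers each of lymphocytes, neutrophils, fibroblasts and epithelium, and dendritic cells was. The probe set of Lpin2 was dim on all 6 arrays, with 7.52 and 7.98 in KO with LPS, 6.84 in WT with LPS, 7.97 and 8.42 in untreated KO and 7.21 in untreated WT, so it cannot check the genotypes. With LPS, KO minus WT was 0.91 for Lpin2 (limma adjusted p = 0.123; blocking on clone, 0.0342).

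With LPS, 4 transporters were higher in KO than in WT cells and 2 were lower. The higher ones were Slc7a8, Slc7a11, Slc7a7 and, below the negative controls, Slc7a2. The lower ones were Slc43a3 and Slc6a4. The test was limma's moderated test on the log2 signals with 1 mean per group, with p adjusted by Benjamini-Hochberg over all 19505 genes and a threshold of 0.05. The 4 higher genes were 6.78% of the 59, against 4.62% of all genes higher, and the 2 lower ones were 3.39%, against 6.66% of all genes lower. The median difference was -0.03 over the transporters and -0.003 over all genes. These shares and medians lie near those of all genes, so the counts are read gene by gene and not as a result about the group.

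Without LPS, 3 transporters were higher in KO than in WT cells (Slc7a8, Slc7a7 and Slc36a1) and 3 were lower (Slc6a4, Slc7a5 and Slc43a3). Each direction held 5.08% of the transporters, against 2.16% of all genes higher and 2.14% lower. The median difference was 0.16 over the transporters and 0.03 over all genes. Slc7a8, Slc7a7, Slc6a4 and Slc43a3 passed in both treatments, with the same sign in each. Comparisons with and without LPS use different arrays, but the same KO clones.

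LPS changed 11 transporters in KO cells, 7 upward and 4 downward. The heavy chain Slc3a2, its light chains Slc7a5, Slc7a7 and Slc7a11, the cationic carriers Slc7a1 and Slc7a2, and Slc6a4 were higher with LPS. Slc36a1, Slc6a6, Slc43a2 and Slc43a3 were lower. The 7 were 11.9% of the transporters, against 6.84% of all genes higher, and the 4 were 6.78%, against 9.8% of all genes lower. The median change was -0.07 over the transporters and -0.03 over all genes.

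In WT cells no transporter passed the limma test for LPS in either direction (0 of 59), and neither did any of the 19505 genes (0.0% higher and 0.0% lower). At an unadjusted p under 0.05, 658 genes and 1 transporter passed, the dim Slc38a11 with a change of -0.82. WT changes lay between -0.82 and 0.69 over the 59 transporters. The WT comparison set 1 array against 1 array, so its error is larger than that of the KO comparison. The measured changes were also smaller in WT. With no test, 144 of the 19505 genes changed over 2-fold with LPS in WT cells, against 2337 in KO cells. None of the 59 transporters did so in WT cells. The WT array with LPS thus lay close to untreated WT, and every KO against WT result with LPS rests on it. The cause of the small WT changes was not tested. The difference between the LPS changes of KO and WT cells passed for 3 transporters, Slc7a11 and Slc7a2 upward (3.39%, against 1.43% of all genes) and Slc43a3 downward (1.69%, against 1.86%), with medians of -0.06 over the transporters and -0.04 over all genes. The comparisons that use the same KO or WT arrays are not independent of each other.

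**Figure D2:**
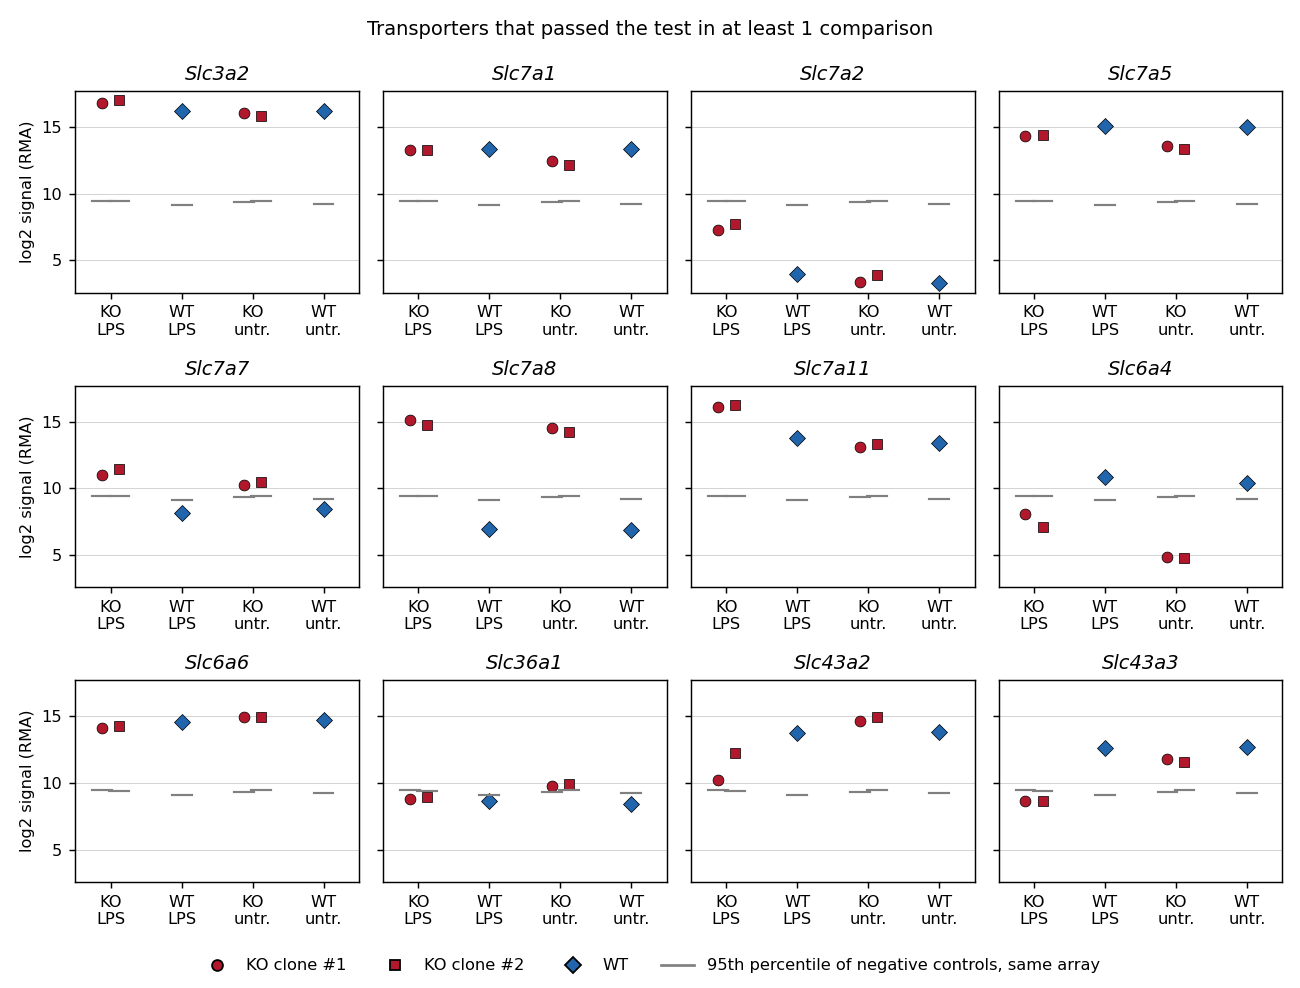
Log2 signal (vertical axis) of the 12 transporters that passed the test in at least 1 comparison, 1 panel per gene, with KO clones in red, WT in blue and the 95th percentile of the negative controls of each array as a grey line. Slc7a8 lies far above the line on all 4 KO arrays and below it on both WT arrays, and Slc7a2 stays below the line on all 6.

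Slc7a8 encodes LAT2, a light chain that exchanges neutral amino acids. Its log2 signals were 15.11 and 14.73 in KO with LPS, against 6.95 in WT with LPS. Without LPS they were 14.55 and 14.26 in KO, against 6.84 in WT. All 4 KO arrays were high and both WT arrays were dim, and the groups did not overlap. KO minus WT was 7.97 with LPS (SE 0.25, limma adjusted p = 0.000226), which is at least 55.9-fold higher when the 95th percentile of the WT array's negative controls stands in for the dim WT signal. Without LPS it was 7.57 (SE 0.25, limma adjusted p = 0.000698, at least 36.6-fold higher). These bounds compare the KO mean with the percentile, while the p-values test the measured signals. LPS moved Slc7a8 by 0.52 in KO cells, which did not pass (limma adjusted p = 0.166), and by 0.11 in WT cells.

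Slc7a11 encodes xCT, the light chain that brings in cystine in exchange for glutamate. Its signals were 16.11 and 16.27 in KO with LPS, against 13.75 in WT with LPS. Untreated, KO gave 13.09 and 13.34, against 13.39 in untreated WT. The KO arrays with LPS were above all others, and the untreated KO arrays lay just below the untreated WT array. With LPS, KO was 5.44-fold higher than WT (difference 2.44, SE 0.21, limma adjusted p = 0.00201), and without LPS the difference was -0.17 (adjusted p = 0.718). LPS raised Slc7a11 7.88-fold in KO cells (2.98, SE 0.17, limma adjusted p = 0.000401), while the WT change was 0.36. The changes of KO and WT differed by 2.62 (SE 0.30, limma adjusted p = 0.0143), and this call was lost without untreated clone #1 (2.5, adjusted p = 0.0654) or untreated clone #2 (2.74, adjusted p = 0.0512).

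Slc3a2, the heavy chain partner of these light chains, gave 16.82 and 17.02 in KO with LPS, against 16.19 in WT with LPS. At rest, KO cells gave 16.02 and 15.85, against 16.18 in untreated WT. LPS raised it 1.97-fold in KO cells (0.98, SE 0.17, limma adjusted p = 0.0133), and both clones were higher with LPS than without. The KO against WT difference of 0.73 with LPS did not pass (limma adjusted p = 0.0822), and the WT change with LPS was 0.01. The LPS call in KO was lost without untreated clone #1 (1.07, adjusted p = 0.06) or untreated clone #2 (0.9, adjusted p = 0.0913).

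Slc7a7 encodes y+LAT1, which exports cationic amino acids in exchange for neutral ones. Its signals were 11.02 and 11.47 in KO with LPS, against a dim 8.16 in WT with LPS. Untreated KO cells gave 10.28 and 10.46, against a dim 8.48 in untreated WT. The 4 KO arrays were above the negative controls and the WT arrays were not. KO minus WT was 3.09 with LPS (SE 0.25, limma adjusted p = 0.00171, at least 4.38-fold higher) and 1.89 without (SE 0.25, limma adjusted p = 0.0195, at least 2.24-fold higher). LPS raised Slc7a7 1.83-fold in KO cells (0.88, SE 0.21, limma adjusted p = 0.0387). The untreated KO against WT call was lost without untreated clone #1 or #2 (adjusted p of 0.0818 and 0.109), and the LPS call without untreated clone #1, untreated clone #2 or LPS clone #2 (adjusted p of 0.182, 0.124 and 0.105).

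Slc7a5 encodes LAT1, the main light chain for leucine and other large neutral amino acids. Its signals were 14.30 and 14.38 in KO with LPS, against 15.11 in WT with LPS. Without LPS, the signals were 13.61 and 13.32 in KO, against 15.02 in untreated WT. Both WT arrays were higher than every KO array, and the KO arrays were higher with LPS than without. Untreated KO was 2.93-fold lower than untreated WT (difference -1.55, SE 0.21, limma adjusted p = 0.0208), while the difference of -0.77 with LPS did not pass (limma adjusted p = 0.0779). LPS raised Slc7a5 1.84-fold in KO cells (0.88, SE 0.17, limma adjusted p = 0.0215). The untreated call was lost without untreated clone #1 or #2 (adjusted p of 0.0678 and 0.105), and the LPS call without any 1 of the 4 KO arrays (adjusted p between 0.0542 and 0.127).

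Among the light chains with signal, Slc7a6 (y+LAT2) passed in no comparison, and its largest KO against WT difference was -0.82 without LPS (limma adjusted p = 0.11).

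The cationic carriers Slc7a1 and Slc7a2 take up arginine, lysine and ornithine. Slc7a1 (CAT-1) gave 13.25 and 13.27 in KO with LPS, against 13.34 in WT with LPS. Untreated, KO gave 12.41 and 12.11, against 13.35 in untreated WT. The untreated KO arrays were the low ones, and the other 4 arrays lay together. LPS raised Slc7a1 2.0-fold in KO cells (1.0, SE 0.17, limma adjusted p = 0.0138), a call lost without untreated clone #2 (0.85, adjusted p = 0.0884). The untreated KO against WT difference of -1.09 did not pass (limma adjusted p = 0.0508) and passed with the clone as a block (adjusted p = 0.0382).

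Slc7a2 (CAT-2) was dim on every array, with 7.24 and 7.72 in KO with LPS, against 3.95 in WT with LPS. Untreated KO cells gave 3.33 and 3.86, against 3.26 in untreated WT. The KO arrays with LPS stood apart from the other 4, though below the negative control percentile, so no fold is given. KO minus WT with LPS was 3.53 (SE 0.32, limma adjusted p = 0.00225) and the change with LPS in KO was 3.89 (SE 0.26, limma adjusted p = 0.000602). The changes of KO and WT differed by 3.2 (SE 0.45, limma adjusted p = 0.0255), and this call was lost without untreated clone #1 or #2 (adjusted p of 0.077 and 0.0539). Of the 36 dim transporters, Slc7a2 was the only one called, in 3 of the 5 comparisons.

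Slc43a3 belongs to the Slc43 family but is known as a carrier of purine nucleobases. Its signals were 8.62 and 8.61 in KO with LPS, against 12.59 in WT with LPS. In the absence of LPS, KO clones gave 11.76 and 11.55, against 12.70 in untreated WT. The KO arrays with LPS were dim and the other 4 were above the negative controls. With LPS, KO minus WT was -3.97 (SE 0.20, limma adjusted p = 0.000699, at least 8.88-fold lower in KO). Without LPS it was -1.05 (SE 0.20, limma adjusted p = 0.0486, 2.06-fold lower), a call lost without untreated clone #1 (adjusted p = 0.129) or #2 (adjusted p = 0.211). LPS lowered Slc43a3 at least 4.66-fold in KO cells (-3.03, SE 0.16, limma adjusted p = 0.000348), the WT change was -0.12, and these changes differed by -2.92 (SE 0.28, limma adjusted p = 0.0102).

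Slc43a2 encodes LAT4, which lets large neutral amino acids move without exchange. It gave 10.20 and 12.27 in KO with LPS, against 13.76 in WT with LPS. Without LPS, the signals were 14.63 and 14.95 in KO, against 13.86 in untreated WT. Both clones were lower with LPS than without, but with LPS they lay 2.06 apart, clone #1 being the lower. LPS lowered Slc43a2 11.7-fold in KO cells (-3.55, SE 0.63, limma adjusted p = 0.0152), and the change was -2.52 without LPS clone #1 and -4.58 without LPS clone #2. The call was lost without untreated clone #1 (-3.71, adjusted p = 0.0756), without untreated clone #2 (-3.4, adjusted p = 0.0944) and with an intensity trend and robust moderation (adjusted p = 0.125). KO minus WT with LPS was -2.53 (SE 0.77) and did not pass (limma adjusted p = 0.105, or 0.0128 when clone was a block). The changes of KO and WT differed by -3.46, which did not pass either (limma adjusted p = 0.191, and 0.0302 with the block).

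Slc6a4 encodes the serotonin transporter, which carries a monoamine. It gave a dim 8.08 and 7.12 in KO with LPS, against 10.85 in WT with LPS. Untreated KO cells gave a dim 4.86 and 4.78, against 10.37 in untreated WT. Only the WT arrays were above the negative controls. KO minus WT was -3.25 with LPS (SE 0.39, limma adjusted p = 0.00563, at least 2.67-fold lower in KO) and -5.55 without (SE 0.39, limma adjusted p = 0.00285, at least 1.97-fold lower). The change with LPS in KO was 2.78 (SE 0.32, limma adjusted p = 0.00338), with both KO groups dim and hence no fold. The changes of KO and WT differed by 2.3 (limma adjusted p = 0.105, or 0.026 when clone was a block).

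Slc6a6 encodes the taurine transporter. It gave 14.13 and 14.26 in KO with LPS, against 14.58 in WT with LPS. At rest, KO cells gave 14.96 and 14.93, against 14.72 in untreated WT. The order of KO and WT was opposite with and without LPS, and neither difference passed (-0.39 and 0.23, limma adjusted p of 0.287 and 0.58). LPS lowered Slc6a6 1.68-fold in KO cells (-0.75, SE 0.15, limma adjusted p = 0.025), a call lost without untreated clone #1, untreated clone #2 or LPS clone #1 (adjusted p of 0.129, 0.122 and 0.0938).

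Slc36a1 encodes PAT1, a proton-coupled carrier that lets small amino acids out of the lysosome. It gave a dim 8.78 and 8.96 in KO with LPS, against a dim 8.65 in WT with LPS. In the absence of LPS, KO clones gave 9.74 and 9.93, against a dim 8.39 in untreated WT. Only the untreated KO arrays were above the negative controls, and by little. Untreated KO minus WT was 1.44 (SE 0.20, limma adjusted p = 0.0236, at least 1.54-fold higher), and LPS lowered Slc36a1 at least 1.32-fold in KO cells (-0.96, SE 0.17, limma adjusted p = 0.0142). The untreated call was lost without untreated clone #1 or #2 (adjusted p of 0.0878 and 0.127), and the LPS call without untreated clone #1, untreated clone #2 or LPS clone #1 (adjusted p of 0.06, 0.0956 and 0.052).

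**Figure D3:**
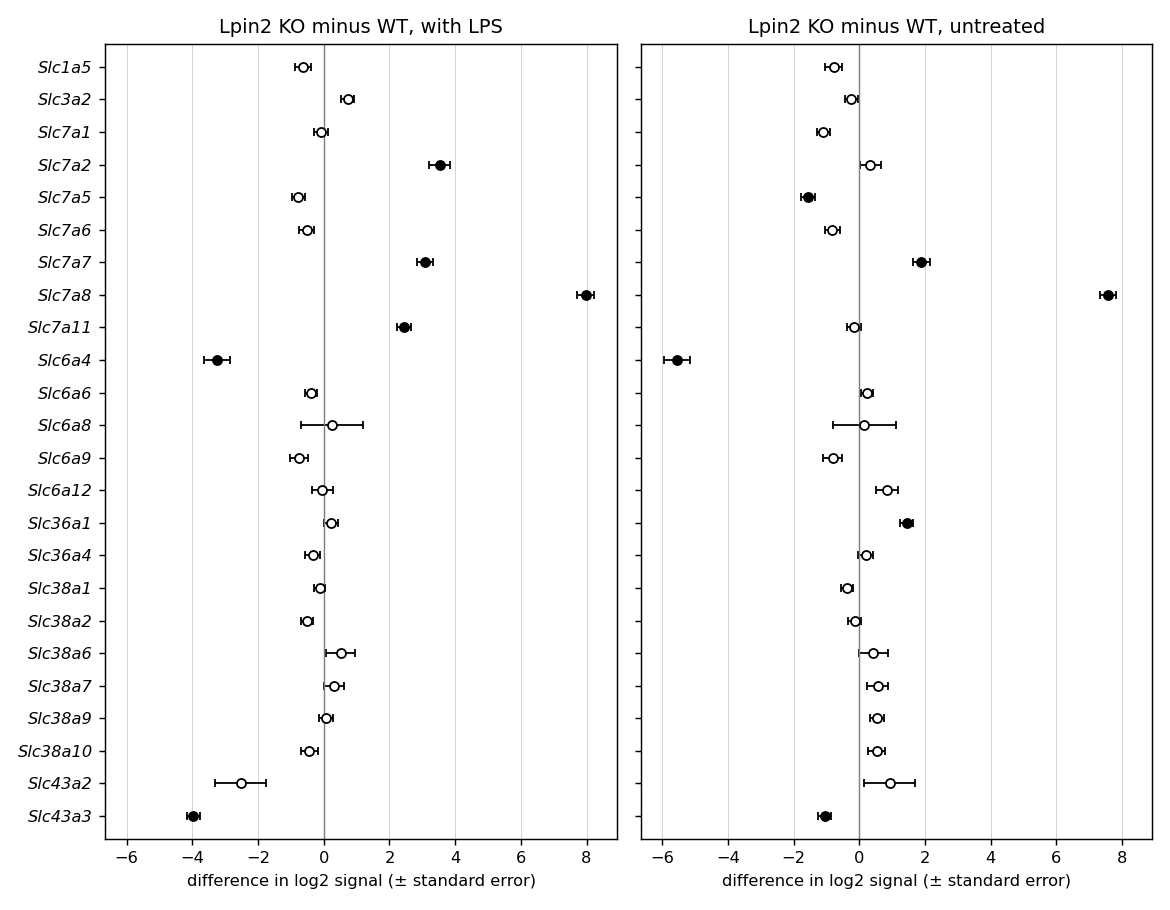
Difference in log2 signal, KO minus WT, with LPS (left) and untreated (right), for the 23 transporters above the negative controls and for Slc7a2, as points with standard errors from the fit. Filled points passed the adjusted threshold. Slc7a8 lies farthest to the right in both panels, at 7.97 and 7.57, and Slc6a4 farthest to the left without LPS, at -5.55.

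The remaining 12 transporters with a signal passed in no comparison. They were Slc1a5, Slc7a6, Slc36a4, Slc6a8, Slc6a9, Slc6a12, Slc38a1, Slc38a2, Slc38a6, Slc38a7, Slc38a9 and Slc38a10. Their KO minus WT differences lay between -0.75 and 0.52 with LPS and between -0.82 and 0.85 without, and their changes with LPS in KO lay between -0.90 and 0.25. With the clone as a block, 2 of them passed for LPS in KO, Slc38a10 (-0.7, adjusted p = 0.0387, against 0.0814 without the block) and Slc6a12, a carrier of betaine and GABA (-0.9, adjusted p = 0.0449, against 0.0804).

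The 4 of them with the highest mean signal carry glutamine and other small neutral amino acids or belong to a family that does. Slc38a2 (SNAT2), which cells raise when amino acids are short, gave 15.67 and 15.51 in KO with LPS, 16.09 in WT with LPS, 15.93 and 15.83 in untreated KO and 16.03 in untreated WT. Slc38a1 (SNAT1) gave 15.53 and 15.54 in KO with LPS, 15.67 in WT with LPS, 15.29 and 15.28 in untreated KO and 15.65 in untreated WT. In both genes every KO array was below the WT array of its treatment. Slc1a5 (ASCT2), the glutamine exchanger, gave 14.55 and 14.91 in KO with LPS, 15.36 in WT with LPS, 14.77 and 14.42 in untreated KO and 15.38 in untreated WT. Slc38a10 gave 13.39 and 13.85 in KO with LPS, 14.06 in WT with LPS, 14.21 and 14.42 in untreated KO and 13.79 in untreated WT. Slc1a5 was lower on every KO array than on the WT array of its treatment, and Slc38a10 was lower with LPS and higher without, but none of these differences passed.

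The KO clones did not move alike in every transporter. With LPS, the median distance between clone #1 and clone #2 was 0.28 over the 23 transporters with a signal, against 0.19 over all 6708 genes with a signal. Without LPS it was 0.19, against 0.16. With LPS 3 transporters lay more than 1 apart (Slc43a2, Slc6a8 and Slc38a6), where 4.07% of all genes with a signal did, and without LPS 1 did (Slc6a8), where 1.68% of all genes did. Slc6a8, the creatine transporter, gave 10.74 in clone #1 and 12.93 in clone #2 with LPS, against 11.59 in WT, and 10.92 and 12.30 without LPS, against 11.45 in WT. WT thus lay between the clones in both treatments. Clone #1 was the higher clone in 4 of the 23 with LPS and in 14 of the 23 without. The same count was not made over all genes, so it cannot be read as a trait of the transporters.

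**Figure D4:**
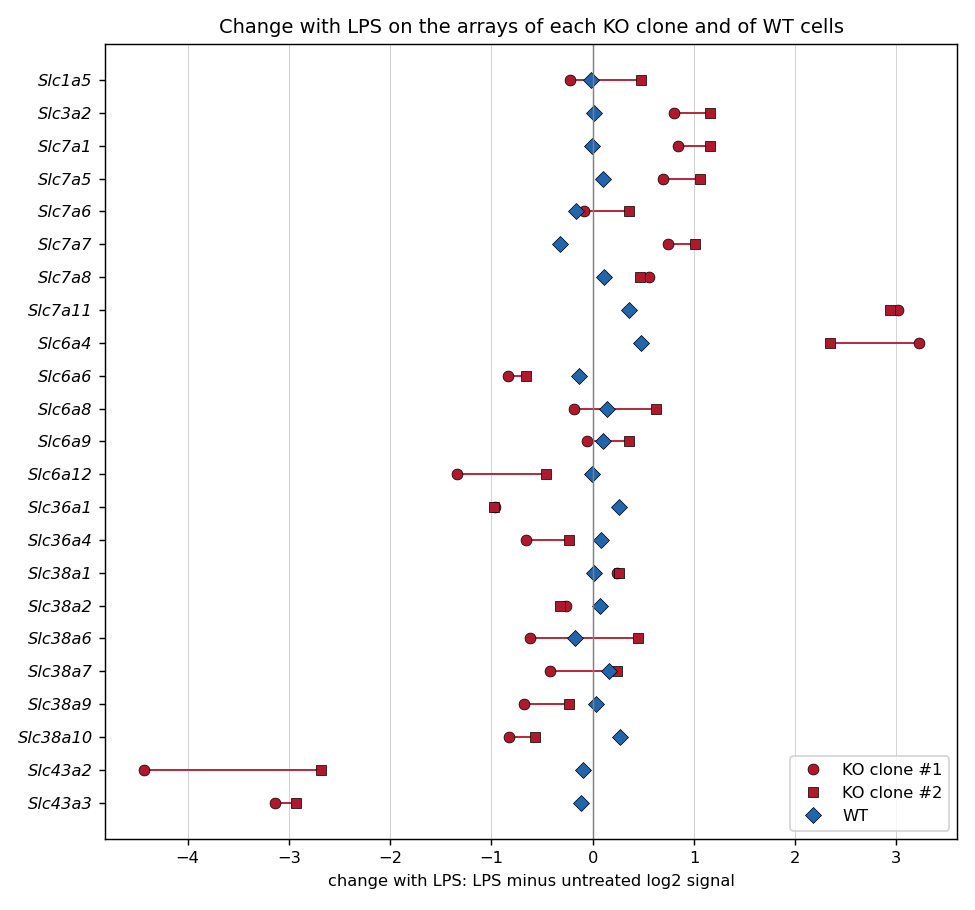
Change in log2 signal with LPS (LPS minus untreated, horizontal axis) for the 23 transporters above the negative controls, with red points for each KO clone and a blue diamond for WT. Slc7a11 changed by 3.02 and 2.94 in the clones and Slc43a3 by -3.14 and -2.93, while the WT diamonds lie between -0.32 and 0.48.

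Other genes of amino acid use were read beside the transporters. Over all 19505 genes, 4.62% were higher and 6.66% lower in KO than in WT with LPS. LPS in KO raised 6.84% and lowered 9.8% of them, and each count below stands beside these rates. The rates include genes without a signal, while most lists are richer in genes with one. Of the 24 ATF4 genes below, 14 had a signal, against 34.4% of all genes. Among the 6708 genes with a signal, tested alone, 32.7% passed in either direction in KO against WT with LPS (11.3% over all genes). The same shares were 15.5% without LPS (4.31%) and 45.3% for LPS in KO (16.6%). The all-gene rates are thus a low standard for lists rich in signal. Of 24 genes of the ATF4 stress response, 4 were higher (16.7%, or 6 genes with the clone as a block) and 5 lower (20.8%) in KO than in WT with LPS, with a median of 0.09. Nupr1, a stress-induced chromatin protein, was at least 8.64-fold higher (4.41, limma adjusted p = 0.00264), and Atf3, a stress-induced transcription factor, at least 1.66-fold higher (2.25, adjusted p = 0.0323). Phgdh, the first enzyme of serine synthesis, was at least 8.98-fold lower (-5.15, adjusted p = 0.0111), and Psat1, the next enzyme, 2.71-fold lower (-1.44, adjusted p = 0.00879). LPS in KO cells raised 8 of the 24 (33.3%) and lowered 3 (12.5%, or 2 genes with the block), with a median of 0.41. Of the raised genes, Chac1, Cth, Trib3 and Ppp1r15a were dim on all 6 arrays. Among those that differed between KO and WT with LPS, Ppp1r15a, Aldh1l2 and Cth were dim on all 6. The list counts here and below include dim genes. Atf4 itself, chosen here after its values were seen, gave 14.49 and 14.35 in KO with LPS, against 13.01 and 12.83 in untreated KO. WT gave 13.57 with LPS and 13.61 untreated. Atf4 is among the 8 genes raised by LPS in KO and passed in neither KO against WT comparison. As it was picked on these values, its own test adds nothing to that count. Array signals measure the RNA of Atf4 and not its translation.

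None of the 15 genes of serine and glycine synthesis and one-carbon use was higher in KO than in WT with LPS, and 8 were lower (53.3%), with a median of -1.05. Phgdh, Psat1, Psph, Shmt2, Mthfd2 and Aldh1l2 stand in this list and in that of the ATF4 stress response. Phgdh, Psat1, Shmt2 and the dim Aldh1l2 are counted as lower in both lists, so these counts are not separate results. Besides Phgdh and Psat1, Shmt1 was at least 1.8-fold lower (-2.61, limma adjusted p = 0.00457) and Mthfd1 2.84-fold lower (-1.51, adjusted p = 0.0406). Both enzymes belong to the folate-bound one-carbon pathway. Without LPS 4 of the 15 were lower (26.7%, against 2.14% of all genes) and 0 higher. LPS in KO raised 2 of the 15 (13.3%) and lowered 3 (20%, or 2 genes with the block).

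Of 18 genes listed for glutathione, cystine use and the antioxidant response, 3 were higher in KO than in WT with LPS (16.7%, or 5 genes with the clone as a block). Another 3 were lower (16.7%). Srxn1, sulfiredoxin, was 3.47-fold higher (1.79, limma adjusted p = 0.00765) and Hmox1, heme oxygenase 1, 2.82-fold higher (1.49, adjusted p = 0.0409). Gclc, the rate-limiting enzyme of glutathione synthesis, was 3.71-fold lower (-1.89, adjusted p = 0.0209), and Gpx4, which reduces lipid peroxides, 2.24-fold lower (-1.17, adjusted p = 0.0167). LPS in KO cells raised 7 of the 18 (38.9%) and lowered 3 (16.7%, or 4 genes with the block). Of the raised genes, Chac1, Chac2 and Cth were dim on all 6 arrays. Nqo1 and Cth, which differed between KO and WT with LPS, were dim on all 6 as well. Chac1 and Cth also stand in the ATF4 list and are counted there.

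Of 13 genes of arginine and ornithine use, 2 were higher (15.4%, or 3 genes with the block) and 0 lower in KO than in WT with LPS. Gch1, which makes the cofactor of nitric oxide synthase, was 10.3-fold higher (3.37, limma adjusted p = 0.00306), and the other was Arg2, which was dim in both groups. LPS in KO raised 3 of the 13 (23.1%, or 4 genes with the block) and lowered 1 (7.69%). Of 31 genes that pass amino acid levels to mTORC1 at the lysosome, 2 were higher (6.45%) and 2 lower (6.45%, or 3 genes with the block) in KO than in WT with LPS. Fnip2, a folliculin partner, was 2.24-fold higher (1.16, limma adjusted p = 0.0155) and Fnip1 at least 1.83-fold higher (0.94, adjusted p = 0.0341), while Depdc5, a subunit of the GATOR1 complex, was 2.58-fold lower (-1.36, adjusted p = 0.00967). LPS in KO raised 2 of the 31 (6.45%) and lowered 5 (16.1%).

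Of 22 other amino acid carriers, 1 was higher (4.55%, or 2 genes with the block) and 3 lower (13.6%) in KO than in WT with LPS. Slc15a3, a lysosomal carrier of histidine and peptides, gave 16.04 and 15.53 in KO with LPS, against 13.46 in WT with LPS (4.99-fold higher, limma adjusted p = 0.00936). Slc25a13, a mitochondrial aspartate and glutamate carrier, was 4.19-fold lower (-2.07, adjusted p = 0.00553), Slc25a40, a mitochondrial glutathione carrier, 2.39-fold lower (-1.26, adjusted p = 0.0204) and Slc25a38, a mitochondrial glycine carrier, 2.11-fold lower (-1.08, adjusted p = 0.0305). LPS in KO raised Slc15a3 (4.55%, or 2 genes with the block) and lowered 2 of the 22 (9.09%). Of 9 genes of glutamine and glutamate enzymes 1 was higher (11.1%), Gfpt1 (1.81-fold, adjusted p = 0.038), and 2 lower (22.2%, or 3 genes with the block), among them Ppat (3.5-fold, adjusted p = 0.0084), and both enzymes use glutamine as a nitrogen donor. Of 12 genes of branched-chain amino acid breakdown, which starts from the substrates of LAT1 and LAT2, 1 was higher (8.33%, Ppm1k, the phosphatase of the branched-chain dehydrogenase, at least 1.92-fold, limma adjusted p = 0.0116) and 1 lower (8.33%, Bckdk, its kinase, 3.43-fold, adjusted p = 0.0106). Of 9 genes of tryptophan and kynurenine enzymes none passed in KO against WT with LPS (1 with the block), and 1 was above the negative controls. LPS in KO raised 1 of the 9 glutamine genes and lowered 1 (11.1% each, the block adding 1 lower), raised 3 and lowered 4 of the 12 branched-chain genes (25.0% and 33.3%) and raised 0 and lowered 1 of the 9 tryptophan genes (11.1% lower, the block adding 1 higher).

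Markers of the cells moved in the same comparisons. With LPS, 3 of 9 macrophage markers were higher in KO than in WT (33.3%, or 4 with the clone as a block) and 0 lower. These were Mrc1, at least 3.03-fold higher (limma adjusted p = 0.0023), Adgre1, 3.91-fold (adjusted p = 0.00285), and Ptprc, 2.45-fold (adjusted p = 0.0205). Without LPS 3 of 9 were higher (33.3%, against 2.16% of all genes, or 5 with the block). Of the osteoclast markers 1 of 6 was higher with LPS (16.7%, Ocstamp, 3.41-fold, limma adjusted p = 0.0211) and 1 lower (16.7%), the dim Mmp9. Without LPS Mmp9 was again the 1 lower marker (16.7%, against 2.14% of all genes, or 2 lower with the block). LPS in KO raised 3 of the 6 osteoclast markers, with a median of 0.92 over the 6. These were Dcstamp, 3.77-fold (limma adjusted p = 0.00885), Acp5, 3.04-fold (adjusted p = 0.0348), and Ocstamp, 2.35-fold (adjusted p = 0.027). Acp5 started low, at 12.26 and 12.78 in untreated KO, against 14.35 in untreated WT. With LPS it gave 13.62 and 14.63 in KO, against 14.55 in WT. Dcstamp and Ocstamp were higher on both KO arrays with LPS than on the WT array with LPS. Of the 9 macrophage markers LPS in KO raised 2 (22.2%), Mrc1 (at least 2.5-fold, limma adjusted p = 0.00149) and Cd14 (1.86-fold, adjusted p = 0.0147). It lowered 2 (22.2%), Csf1r (2.56-fold, limma adjusted p = 0.00464) and Adgre1 (1.79-fold, adjusted p = 0.0177). The block gave 3 raised and 2 lowered. The part of these shifts in the transporter results was not tested, and a gene's level per cell cannot be told apart from the makeup of the culture.

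The genes whose signals followed Slc7a8 most closely over the 6 arrays, among 6707 genes above the negative controls, were Rab11a (Pearson r = 0.9981), Tlr2 (0.9978), Sdf4 (0.9955), Fbxo11 (0.9953) and Tmem243 (0.9941). Each was higher on the 4 KO arrays than on the WT arrays, so the correlation rests on that one split and says nothing of its size. Sdf4, for example, gave 12.20 and 12.19 in KO with LPS, against 11.59 in WT with LPS, and was not dim in WT. Tlr2, a receptor for bacterial lipoproteins, gave 15.76 and 15.65 in KO with LPS, against 14.57 in WT with LPS, and 15.58 and 15.56 in untreated KO, against 14.49 in untreated WT.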

How the data were processed

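RNA of 6 RAW-D samples was hybridised to Clariom S arrays. The authors deposited log2 signals, normalized with RMA in Expression Console (version not given in the sources used here), as 1 table of 28846 values per array, among them 22206 gene probe sets and 5222 negative control probes. Of the gene probe sets, 19572 had 1 gene symbol, 2634 had none and 0 had several. These gave 19505 named genes, with the probe set of highest mean kept for the 55 symbols that had several. Array annotation gave the symbols, and the build of the array was not used for coordinates.

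All 6 arrays entered 1 fit in limma 3.58.1 (R 4.3.3) with a mean per group, 2 residual and 3.83 prior degrees of freedom, two-sided tests and Benjamini-Hochberg adjustment over 19505 genes at 0.05. The methods' own rule was a fold change over 2 and was run as an alternative. The script was tested on simulated data. KO arrays of a number came from 1 clone, which pairs them across treatments, and their deviations from the group means correlated at 0.222 (a clone block leaves 1 residual degree of freedom). A fold against a dim group is a bound, the mean of the other group over the 95th percentile of the negative controls, averaged over the dim group's arrays.

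Named transporters were those above the negative controls that passed in at least 1 comparison, Slc7a2 as the 1 dim gene that passed, and the 4 of highest mean among the rest. From each other list up to 4 genes were named, those above the negative controls with the largest difference that passed in KO against WT with LPS. The transporters and lists were chosen with earlier results of these data known. The spread behind every p-value is that between the KO clones, with 1 array per clone and treatment. No clone was repeated, and WT had no second array, so neither the spread within a clone nor that of WT was measured. Alternatives were leaving out each KO array, the clone block, renormalization, median centring, stricter signal filters, other moderation, all probe sets, the 3 arrays of a treatment alone and other thresholds.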

Additional observations from a re-analysis of the deposited data

Results flagged for a closer look

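For 3 transporters the change with LPS differed between KO and WT cells by the test of that difference. Slc43a3 fell further in KO cells, by a difference of -2.92 on the log2 scale (SE 0.28, limma adjusted p = 0.0102), with changes of -3.14 and -2.93 in the clones and -0.12 in WT. Slc7a11 rose further in KO cells, by 2.62 (SE 0.30, limma adjusted p = 0.0143), with changes of 3.02 and 2.94 in the clones and 0.36 in WT. Slc7a2 differed by 3.2 (SE 0.45, limma adjusted p = 0.0255) while dim on all 6 arrays. WT contributed 1 array per treatment to each of these differences. No group held the 4 arrays needed to look for a single array that stands apart.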

How the results depend on the processing

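The 26 calls of single transporters were compared with their values under up to 13 other settings at the same threshold, 306 comparisons in all. None of these reversed, 275 stayed on their side of the threshold and 31 no longer passed, and 13 of the 26 calls held in every setting run. These were the KO against WT calls of Slc7a8, Slc6a4 and Slc7a7 with LPS, Slc7a8 and Slc6a4 without, and those of Slc7a11, Slc7a2 and Slc43a3 with LPS, the LPS calls in KO of Slc7a11, Slc7a2, Slc43a3 and Slc6a4, and the difference for Slc43a3. The settings were not all separate checks. For KO against WT with LPS, leaving out either untreated KO array gave the same values as using the arrays of that treatment alone. Without LPS, the same held for leaving out either KO array with LPS. Keeping all probe sets left the differences unchanged, since each transporter had 1 probe set. The 275 and 306 thus include repeats of the same fit and overstate the number of separate checks. All but 1 of the 31 losses came from leaving out a KO array, which leaves 1 residual degree of freedom and assumes that the lone clone varies like the other groups.

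The counts of called transporters moved as follows, with the share of the transporters tested and that of all genes tested under the same setting in parentheses. In KO against WT with LPS, 6 were called, 10 at an adjusted p under 0.10 (16.9%, against 16.3%), and 6 to 9 without 1 KO array. In KO against WT without LPS, 6 were called, 3 among genes above the 99th percentile of the negative controls (23.1%, against 20.3%), 2 at an adjusted p under 0.01 (3.39%, against 1.08%), and 2 to 6 without 1 KO array, with 2 left without untreated clone #1 or #2 (3.39%, against 1.1% and 1.14%). For LPS in KO, 11 were called, 7 above the 99th percentile (53.8%, against 51.4%), 4 under 0.01 (6.78%, against 7.69%), 6 over 2-fold with no test (10.2%, against 12%), and 5 to 10 without 1 KO array. Leaving out untreated clone #1 or #2 gave the 5 (8.47%, against 7.87% and 7.61%). For the difference in LPS change, 3 were called, 1 above the 99th percentile (7.69%, against 18.2%), 0 under 0.01 (against 0.518%), 8 over 2-fold with no test (13.6%, against 12.5%), and 1 to 5 without 1 KO array. Of these, 1 remained without untreated clone #1 or #2 (1.69%, against 0.831% and 0.948%) and 5 were called without LPS clone #1 or #2 (8.47%, against 3.8% and 6.02%). For LPS in WT the count was 0 in every setting run. With the 99th percentile in place of the 95th, 13 and not 23 transporters were above the negative controls.

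With the clone as a block, the count of the difference in LPS change was 5 and not 3 (8.47%, against 5.53% of all genes), with Slc43a2 and Slc6a4 added. Other calls that the block changed are given beside their genes, and it changed no further call of a transporter. The list counts it changed in KO against WT with LPS and in LPS in KO stand beside each list. Leaving out a WT array was not run, since its group has no other. No read depth exists for arrays, and signals near or below the negative controls limit 36 of the 59 transporters.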
